A study of Homo sapiens with 6 samples.

Results

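TXNIP, 4 of its alpha-arrestin relatives (ARRDC1, ARRDC2, ARRDC3 and ARRDC4) and the transcription factors MLX, MLXIP and MLXIPL were followed in 6 RNA-seq libraries made from PLC/PRF/5 cells, an established line of human hepatoma origin. The 8 genes were selected by name from the 25071 genes of the count table, with their values in this comparison already known. Those values are therefore given as a description, without a test of their own. Threshold calls quoted for them come from the fit across all genes and are also description only. The groups were 3 libraries of cells given a control vector and 3 of cells given a plasmid that overexpresses ARD1, all harvested 48 hours after transfection, and every library came from the same line. The protein ARD1, whose gene is NAA10, carries the catalytic activity of an N-terminal acetyltransferase. The sources used here do not give the plasmid's promoter or the share of cells that took it up, and the labels do not say whether replicate libraries stem from separate cultures.

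Alpha-arrestins are adaptor proteins with an arrestin fold that carry membrane cargo to ubiquitin ligases of the HECT class and so to endocytosis. TXNIP, the best known of them, also binds reduced thioredoxin and restrains glucose uptake, in part by internalising the glucose transporter GLUT1. Its gene is a classical read-out of glucose 6-phosphate. MondoA (encoded by MLXIP) and ChREBP (encoded by MLXIPL) sense sugar phosphates, pair with MLX, and bind carbohydrate response elements, which are pairs of E-box-like sites. In liver, ChREBP is known for switching on genes of glycolysis and fat synthesis, and ARRDC4 responds to glucose much as TXNIP does.

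Promoter windows from RefSeq (GRCh38.p14), running from 250 bases before to 50 bases after a transcript start, matched all 8 genes, with 11 windows in all. The stretches below are shown because TXNIP and ARRDC4 were the members with higher levels in the ARD1 libraries, and MLX shares an E-box with ARRDC4. They run 5′ to 3′ on the gene's strand and end before the start. Capitals mark the tandem pair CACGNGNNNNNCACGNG, the palindromic E-box CACGTG, and CCAAT boxes on either strand. The TXNIP stretch is chr1:145996640-145996729 (minus strand), that of ARRDC4 is chr15:97960483-97960652 (plus strand), and that of MLX is chr17:42567025-42567065 (plus strand).
TXNIP: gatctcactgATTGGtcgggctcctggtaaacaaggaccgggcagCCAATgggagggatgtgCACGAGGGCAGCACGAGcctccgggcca
ARRDC4: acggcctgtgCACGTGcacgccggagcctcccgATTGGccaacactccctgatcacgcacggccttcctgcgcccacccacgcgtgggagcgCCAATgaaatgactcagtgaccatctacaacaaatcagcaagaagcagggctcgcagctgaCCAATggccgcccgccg
MLX: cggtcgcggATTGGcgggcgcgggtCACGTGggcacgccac

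Among the 8 genes, only TXNIP had a window that held the tandem pair as spelled above. It lies at positions -88 to -72 relative to the first start and reads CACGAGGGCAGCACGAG. Over both strands, 20 of 35116 windows (0.0570%) held such a pair. A palindromic E-box was found in ARRDC4, at -210 to -205, and in MLX, at -50 to -45. E-boxes occurred in 7.26% of windows. CCAAT boxes were common, at 34.6% of windows. ARRDC4 held 3 of them, TXNIP 2, and ARRDC1, MLX and MLXIP 1 each, as did 1 of the 2 windows of ARRDC2 and of ARRDC3. The forkhead core GTAAACA, in 3.42% of windows, was found at -124 of the first TXNIP start and, on the other strand, at -29 of the downstream ARRDC3 start. MLXIPL held none of the 4 motifs. A match says only that these letters are present. The pair was searched only with both sites in the same orientation and with the spelling and spacing given. Inverted pairs and looser spellings were not searched. A window without a match may thus still hold a carbohydrate response element, and the share of windows above is not the frequency of such elements.

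**Figure D1:**
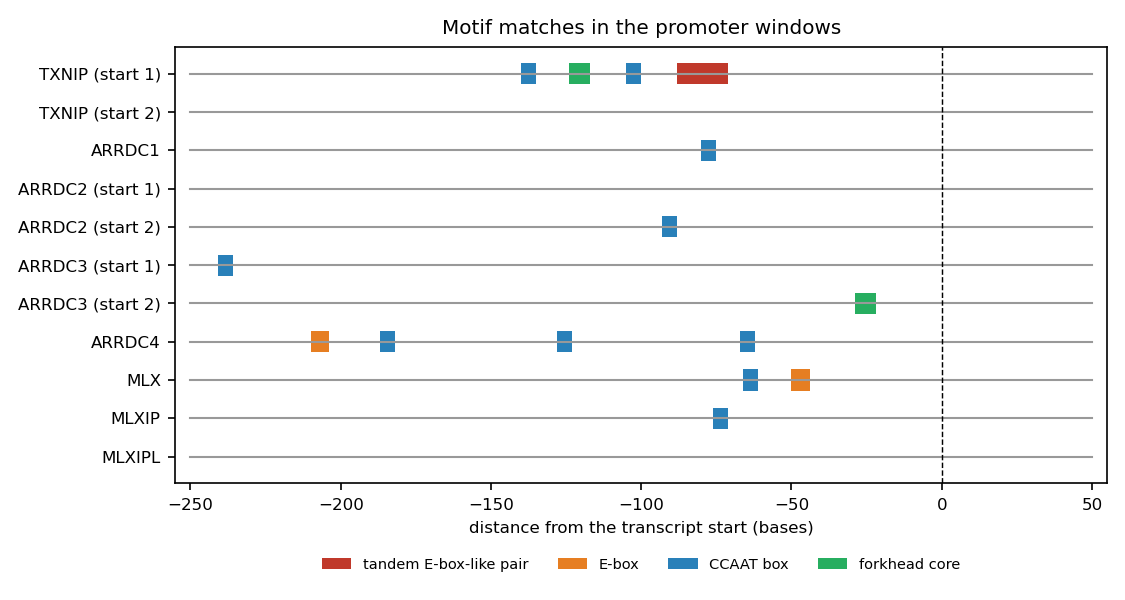
Positions of motif matches on both strands in the 11 promoter windows, as distance in bases from the transcript start (dashed line); coloured blocks are matches and genes with 2 RefSeq starts have 2 lines. The tandem pair appears only in the first TXNIP window, at -88 to -72, and ARRDC4 holds 3 CCAAT boxes and an E-box.

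A library held 21857327 to 25011357 counts. NAA10, the gene on the plasmid, stood at 35.6, 32.2 and 36.2 CPM (counts relative to the TMM-scaled library total) in control replicates 1 to 3, and at 355, 400.2 and 294 CPM in ARD1 replicates 1 to 3. Control replicate 1 stood apart: its chi-square per degree of freedom against the other controls was 15.9 and 18.5, where that between control replicates 2 and 3 was 2.86 and pairs of ARD1 libraries gave 2.44 to 4.09. Of 10 hepatocyte markers, ALB, FGB, TF and HNF4A were well expressed and AFP, APOB and SERPINA1 low, while APOA1, APOA2 and TTR stayed under 1 CPM. The 10 summed to 737 to 769.8 CPM in control and 215 to 237 CPM in ARD1 libraries, a fall carried by ALB, TF and FGB, with AFP also lower and SERPINA1, APOB and HNF4A higher. Summed markers of other cell types moved too, endothelial from 70.0 to 82.7 up to 90.2 to 103 CPM, fibroblast from 78.2 to 98.7 down to 17.7 to 20.5 CPM, and immune from 17.1 to 19.4 down to 8.998 to 10.1 CPM. These sums hide opposite changes: CDH5 fell (33.1 to 0.0677 CPM) while PECAM1, KDR and VWF rose, and COL3A1 and LUM fell while COL1A1 rose. Their part in the results below was not tested.

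TXNIP and ARRDC4 were several-fold higher in the ARD1 libraries, and the remaining 6 genes had fold changes below 1. In edgeR's quasi-likelihood fit across 15816 genes, all 8 were tested and 7 were past an adjusted p of 0.05, where 64.6% of all tested genes were. Of these, 2 were higher (32.4% of all genes were) and 5 lower (32.2%). Control and ARD1 libraries did not overlap for 7 of the 8, against 69.6% of all genes (35.6% higher and 34% lower in ARD1 libraries). Nothing is read from these counts, since the genes were selected with this contrast known. In bulk libraries, less transcript per cell and fewer cells that carry it cannot be told apart.

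TXNIP (ENSG00000265972) lies at chr1:145992435-145996600 on the minus strand (GRCh38, GENCODE 29), and none of its exon bases overlap exons of another gene. Its level was 196, 179 and 180.2 CPM in control replicates 1 to 3 and 667, 761 and 702 CPM in ARD1 replicates 1 to 3. The lowest ARD1 library was thus more than 3 times the highest control, and the spread within a group was small, with coefficients of variation of 5.12% and 6.66%. The means were 185 ± 9.46 and 710.1 ± 47.3 CPM (SD, n = 3), a 3.84-fold difference (log2 fold change 1.94, SE 0.0749). As a share of all counts TXNIP went from 0.0165% to 0.0172% in control libraries to 0.0730% to 0.0831% in ARD1 libraries. Ranked by count, it moved from places 1018 to 1083 in the control libraries to places 85 to 105.

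ARRDC4 (ENSG00000140450, chr15:97960698-97973838, plus strand), an alpha-arrestin also reported to restrain glucose uptake, was the scarcest of the 5 alpha-arrestins followed here in the control libraries. It stood at 15.1, 20.1 and 18.0 CPM in controls and 88.3, 95.5 and 92.5 CPM in ARD1 libraries. All 3 ARD1 values lay above 4 times the highest control value. The means were 17.7 ± 2.48 and 92.1 ± 3.598 CPM (SD, n = 3), 5.19-fold apart (log2 fold change 2.38, SE 0.0982). This was the largest fold change among the 8 genes, and 1.53% of all tested genes had a higher one, where 2.59% did for TXNIP.

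**Figure D2:**
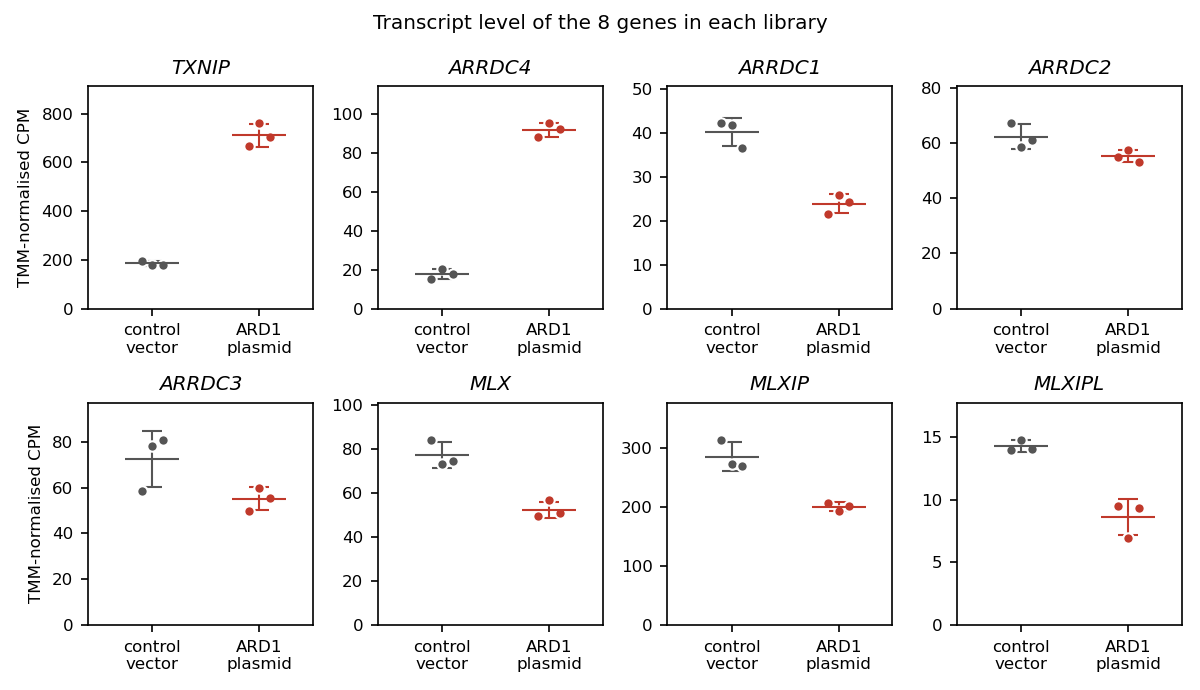
TMM-normalised CPM of each of the 8 genes in control (grey) and ARD1 (red) libraries; points are libraries in replicate order, horizontal bars the mean and error bars the SD of 3. TXNIP and ARRDC4 rise to 667 to 761 and 88.3 to 95.5 CPM, ARRDC2 and ARRDC3 change least, and only ARRDC3 has groups that overlap.

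The other alpha-arrestins did not move with them. ARRDC1 (ENSG00000197070, chr9:137605654-137615360, plus strand), which drives budding of small vesicles from the plasma membrane through TSG101, had 42.3, 41.9 and 36.5 CPM in controls. In the ARD1 libraries it had 21.6, 25.8 and 24.2 CPM. Every ARD1 value was below every control value, and the log2 fold change was -0.75 (SE 0.0958). ARRDC3 (ENSG00000113369, chr5:91368724-91383359, minus strand), an adaptor in the trafficking of membrane cargo, had 58.6, 78.1 and 80.9 CPM in controls and 49.9, 59.95 and 55.2 CPM in ARD1 libraries. Its groups overlapped, because control replicate 1 lay below ARD1 replicate 2. Its log2 fold change was -0.40 (SE 0.110), and -0.54 without control replicate 1. With library totals in place of TMM factors it came to -0.14 and ARRDC3 was no longer past the threshold.

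ARRDC2 (ENSG00000105643, chr19:18001132-18014102, plus strand) was the member closest to no difference. It had 67.1, 58.5 and 61.2 CPM in controls and 54.99, 57.3 and 53.1 CPM in ARD1 libraries. The groups came close to each other without overlapping, and the log2 fold change was -0.18 (SE 0.0783), not past the threshold. Its direction depended on the processing. It was past the threshold as higher with offsets for GC content and transcript length (0.14, with or without the replicate block) and as lower with RLE scaling (-0.19) and without control replicate 2 (-0.25), and was 0.0907 with library totals, not past it. ARRDC5, the remaining family member by name, had 0 counts in the control libraries and 0 or 1 in each ARD1 library, and was not tested. A count of 0 allows up to 0.1199 to 0.137 CPM in a library.

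Ratios within a library do not depend on scaling. ARRDC4 to ARRDC3, per kb of exon, was 0.313, 0.312 and 0.269 in controls and 2.14, 1.93 and 2.03 in ARD1 libraries. ARRDC3 transcript thus exceeded that of ARRDC4 in every control library, and the order was inverted in every ARD1 library. ARRDC4 to ARRDC1 went from 0.416 ± 0.0691 to 3.63 ± 0.184, and TXNIP to ARRDC3 from 3.56 ± 0.850 to 17.6 ± 0.525 (SD, n = 3). ARRDC4 to TXNIP was 0.0689, 0.1002 and 0.0887 in controls and 0.118, 0.112 and 0.117 in ARD1 libraries, so ARRDC4 gained on TXNIP as well. Control replicate 1 had the lowest of these control ratios.

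TXNIP made up 54.2% ± 2.21 of the 5 genes' counts per kb in controls and 79.0% ± 0.247 in ARD1 libraries (SD, n = 3). ARRDC4 went from 4.64% ± 0.687 to 9.14% ± 0.241. The shares of ARRDC1, ARRDC2 and ARRDC3 went down to 2.52% ± 0.0823, 4.81% ± 0.238 and 4.496% ± 0.141, from 11.2% ± 0.821, 14.3% ± 0.883 and 15.7% ± 2.76. Shares sum to a whole, so a gene with unchanged counts loses share when TXNIP gains.

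**Figure D3:**
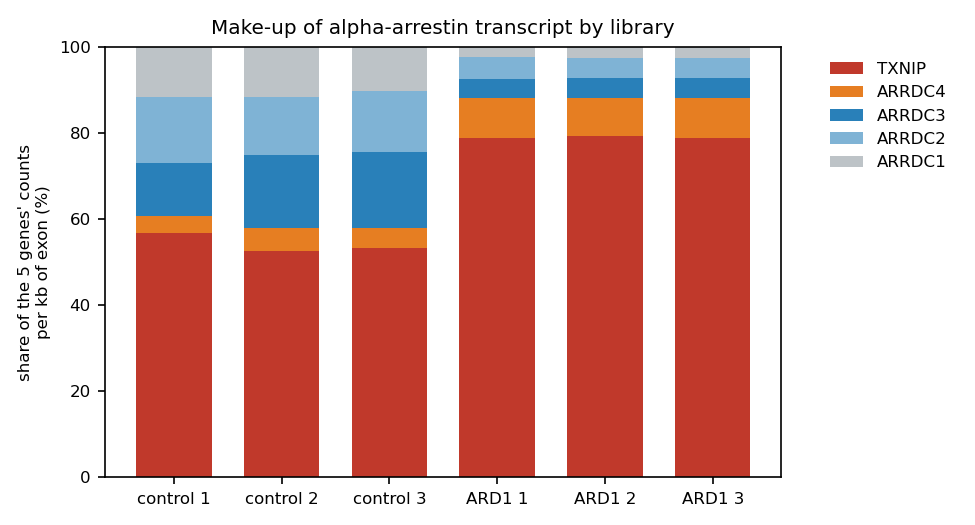
Share of each of the 5 genes in their summed counts per kb of exon (%), one stacked bar per library. TXNIP takes 52.6% to 56.7% of a control library and 78.9% to 79.3% of an ARD1 library, and ARRDC4 goes from 3.91% to 5.27% up to 8.86% to 9.29%.

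The MLX factors were all lower in the ARD1 libraries, in the opposite direction to TXNIP and ARRDC4. MLX (ENSG00000108788, chr17:42567068-42573239, plus strand), the shared dimer partner, had 84.2, 73.3 and 74.6 CPM in controls and 49.7, 56.6 and 50.8 CPM in ARD1 libraries. The groups stood well apart, and the log2 fold change was -0.56 (SE 0.0829). MLXIP (ENSG00000175727, chr12:122078722-122147347, plus strand), which encodes MondoA, had 315, 273 and 269 CPM in controls and 208, 193 and 201 CPM in ARD1 libraries. Its highest level was in control replicate 1. The log2 fold change was -0.51 (SE 0.0752), and -0.45 without that library.

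MLXIPL (ENSG00000009950, chr7:73593194-73624543, minus strand), which encodes ChREBP, was the scarcest of the 3 factors. It had 14.0, 14.8 and 14.1 CPM in controls and 9.50, 6.94 and 9.39 CPM in ARD1 libraries. The controls were close together and ARD1 replicate 2 was the lowest library. The log2 fold change was -0.73 (SE 0.129). These counts join all isoforms of MLXIPL, so the shorter isoform that ChREBP itself induces was not separated.

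The make-up of the 3 factors hardly moved. Per kb of exon, MLXIP made 49.3% ± 0.645 of their sum in controls and 50.6% ± 1.90 in ARD1 libraries, MLX 43.6% ± 0.463 and 43.1% ± 2.94, and MLXIPL 7.15% ± 0.675 and 6.27% ± 1.07 (SD, n = 3). For each factor the difference between the groups was smaller than the larger of the 2 SDs. TXNIP relative to MLXIP went from 2.49 ± 0.0925 to 13.6 ± 1.40 per kb.

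Per kb of exon, the order of mean CPM in control libraries was TXNIP (51.0 ± 2.61), MLXIP (20.5 ± 1.81), MLX (18.2 ± 1.41), ARRDC3 (14.7 ± 2.46), ARRDC2 (13.4 ± 0.958), ARRDC1 (10.5 ± 0.838), ARRDC4 (4.36 ± 0.610) and MLXIPL (2.97 ± 0.0985). The mean ± SD ranges overlapped between MLXIP and MLX, MLX and ARRDC3, and ARRDC3 and ARRDC2. In ARD1 libraries the order was TXNIP (196 ± 13.04), ARRDC4 (22.6 ± 0.883), MLXIP (14.4 ± 0.521), MLX (12.3 ± 0.869), ARRDC2 (11.9 ± 0.453), ARRDC3 (11.2 ± 1.02), ARRDC1 (6.25 ± 0.553) and MLXIPL (1.79 ± 0.301). There MLX, ARRDC2 and ARRDC3 were not separated from each other. ARRDC4 moved from the seventh place to the second. With the longest transcript as the length it came after MLXIP, at 22.6 against 23.8, and in controls it was level with MLXIPL at 4.36.

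Directions of 7 of the 8 genes held under all 16 alternative analyses. The log2 fold change of TXNIP ranged over 1.84 to 2.21, that of ARRDC4 over 2.24 to 2.64, and that of ARRDC1 over -0.85 to -0.35. MLX ranged over -0.63 to -0.30, MLXIP over -0.58 to -0.24, MLXIPL over -0.81 to -0.32, and ARRDC3 over -0.69 to -0.14. Library totals moved the median of all genes from 0.03 to 0.30 and the share of changed genes that were higher from 50.2% to 68.6%, and moved each of the 8 upward with it. Offsets for GC content and length moved ARRDC1 to -0.35 and MLXIPL to -0.32, whose longest transcripts have 62.8% and 63.5% GC against a median of 48.3%, and moved ARRDC3, at 37.6% GC, to -0.69. The sources used here do not give the strand setting of the counting, and 18.1% of MLX exon bases lie opposite exons of PSMC3IP and 9.53% of those of ARRDC2 opposite AC020904.3.

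**Figure D4:**
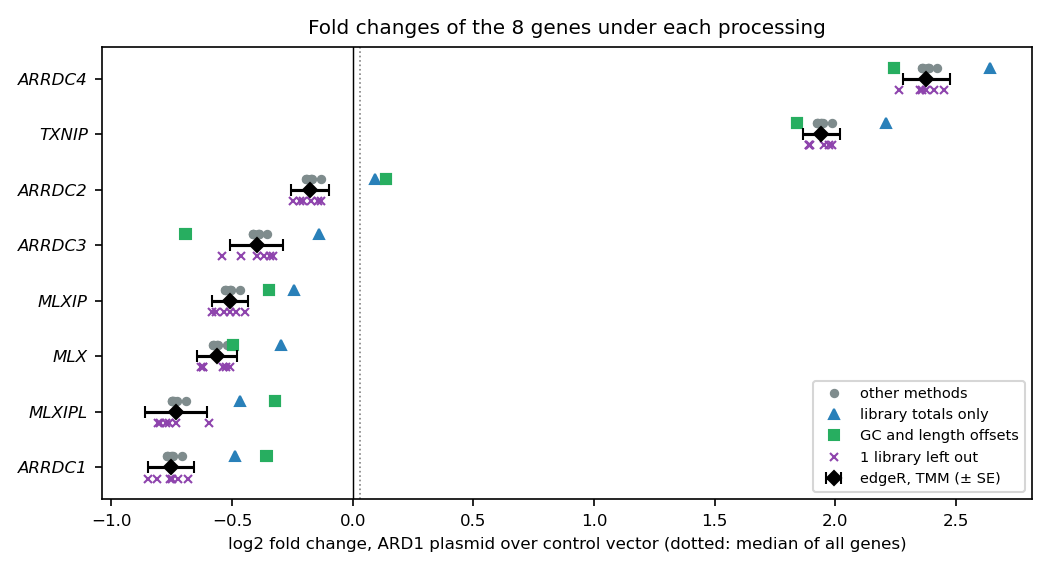
Log2 fold change of ARD1 over control libraries for the 8 genes; diamonds are the edgeR fit with TMM scaling ± SE, other marks the 16 alternatives, and the dotted line the median of all genes (0.03). TXNIP and ARRDC4 stay above 1.8 throughout, and ARRDC2 is the gene whose marks lie on both sides of 0.

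Genes around these 8 were grouped into 6 lists, and their tests come from the same fit, adjusted over all genes. Beside their counts stand the 32.4% of all genes that were higher and the 32.2% that were lower. Known glucose-responsive targets of MLX dimers, the members left out, mostly fell. Of 24 listed, 16 were tested, 11 were lower, 4 higher and 1 (KHK) did not pass, with a median log2 fold change of -1.12 against 0.03 for all genes. FASN, the fatty acid synthase, fell from 2476 ± 417 to 337 ± 10.6 CPM (SD, n = 3; -2.88, SE 0.104). Those that rose were GCKR, the inhibitory partner of glucokinase (2.42 ± 0.118 to 20.4 ± 0.870 CPM; 3.08, SE 0.125), RGS16, a regulator of G protein signalling (0.168 ± 0.113 to 1.16 ± 0.214 CPM; 2.75, SE 0.466), KLF10, a zinc finger repressor (155 ± 9.20 to 340.5 ± 13.3 CPM; 1.13, SE 0.0709), and ACACB, an acetyl-CoA carboxylase (0.71, SE 0.0993). RGS16 stood at 0.0455, 0.190 and 0.269 CPM in control replicates 1 to 3, near the level of 3 counts, so the size of its change is uncertain. The liver pyruvate kinase PKLR was at 0.0919 and 0.357 CPM, too low to be tested. TXNIP and ARRDC4 thus went with the smaller group of this list.

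The tandem pair, in the form searched, gave another set, defined by sequence alone. Of the 20 genes with a tandem pair in a window, 16 were tested, and 8, TXNIP included, were higher and 3 lower, with a median of 0.27. Since TXNIP was selected with its rise known, its place among the 8 is not a finding. Among the 11513 tested genes that had a window without this form of the pair, 33.2% were higher, 33.2% lower and the median was 0.02. GFPT1, the first enzyme of hexosamine synthesis, named after its values were seen, had the next largest rise after TXNIP (252 ± 4.86 to 546.8 ± 26.7 CPM; log2 fold change 1.12, SE 0.0673). The genes that fell were P4HA1, a collagen prolyl hydroxylase (-0.42), RCN3 (-0.58) and the nuclear transport GTPase RAN (-0.16), also named after their values were seen. In edgeR, RAN (adjusted p = 0.0345) was near the threshold. So were AKAP10 (adjusted p = 0.0479) and PPP2R3C (0.0402) among the higher genes, named likewise. Genes with a palindromic E-box were higher in 33.8% and lower in 34.4% of 1398 tested cases.

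Transcription factors of the MAX and MLX network went in both directions, as 5 of 17 were higher and 7 lower (median -0.07), and the 70.6% past the threshold lay near the 64.6% of all genes. MAX, the partner of the MYC family, rose slightly, from 47.7 ± 1.28 to 58.7 ± 1.596 CPM (0.30, SE 0.0733). MYCN fell from 16.9 ± 0.138 to 1.17 ± 0.0841 CPM (-3.85, SE 0.143), and MYCL rose from 0.488 ± 0.255 to 2.03 ± 0.0479 CPM (2.04, SE 0.338). The circadian repressor BHLHE41 rose (2.22, SE 0.202), as did MXD1 (1.53, SE 0.0819), a MAX partner, and MITF (1.57), a melanocyte and lysosome factor. With library totals 9 of the 17 were higher.

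A list of arrestin-fold relatives, HECT ligases that alpha-arrestins recruit, and partners or cargo of ARRDC1 and ARRDC3 had 11 of 18 tested genes higher and 5 lower (median 0.34). The ligase NEDD4L rose from 59.9 ± 2.07 to 86.8 ± 5.56 CPM (0.54, SE 0.0754). ITCH, which ubiquitinates TXNIP, did not pass in edgeR (0.15, adjusted p = 0.150). It passed as higher with library totals (0.41, adjusted p = 0.00193) and as lower with the replicate block and offsets (-0.15, adjusted p = 0.0364), and its adjusted p ranged from 0.00193 to 0.426. The retromer subunit VPS26A, of arrestin fold, rose from 54.0 ± 3.46 to 107 ± 3.12 CPM (0.99, SE 0.0749). The integrin ITGB4, reported as cargo of ARRDC3, fell from 309 ± 39.1 to 89.2 ± 2.995 CPM (-1.79, SE 0.0876). The others that fell were beta-arrestin 1 (ARRB1, -0.87), WWP1 (-0.30), WWP2 (-0.25) and VPS26B (-0.20), and only 2 of the list fell with library totals. Across the alternatives WWP2 ranged over -0.35 to 0.0186 and VPS26B over -0.28 to 0.0710. WWP1, whose groups overlapped, ranged over -0.56 to -0.0348, with an adjusted p of up to 0.782 over all alternatives. The cone arrestin ARR3, at 0.411 ± 0.365 and 1.01 ± 0.264 CPM, passed in edgeR (1.29, adjusted p = 0.0338) but not without ARD1 replicate 2 or 3 or control replicate 1 or 2 (adjusted p = 0.109, 0.0835, 0.109 and 0.103, range over all alternatives 0.00311 to 0.109).

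Of the thioredoxin system and proteins reported to bind or modify TXNIP, 19 genes were tested, of which 9 fell and 5 rose (median -0.21). Thioredoxin itself (TXN), which TXNIP binds, was at 327 ± 46.9 and 339 ± 5.62 CPM and did not pass in edgeR (0.06, adjusted p = 0.608), though it was past the threshold as higher with library totals (0.32). TXNIP per TXN transcript went from 0.182 ± 0.0373 to 0.659 ± 0.0370 per kb. The reductase TXNRD1 rose slightly (0.27, SE 0.0680), and TXNRD3 fell (-1.06, SE 0.123). SRXN1, which repairs oxidised peroxiredoxins, rose from 26.5 ± 1.61 to 98.4 ± 8.17 CPM (1.89, SE 0.0864), and PRDX2 fell from 160.3 ± 16.1 to 62.5 ± 4.53 CPM (-1.36, SE 0.0864). The others that rose were NXN (0.36), COPS5 (0.35) and PRKAA1 (0.24), a catalytic subunit of AMPK, which phosphorylates TXNIP. Across the alternatives PRKAA1 ranged over -0.15 to 0.50, COPS5 over 0.0738 to 0.607 and NXN over 0.287 to 0.680. Each failed to pass under some alternatives (highest adjusted p over all alternatives 0.0704, 0.268 and 0.0767 in the same order). DDIT4, reported to form a complex with TXNIP, was lower with TMM (-0.21, SE 0.0710) and did not pass with library totals (0.0518, adjusted p = 0.460) or with GC and length offsets (0.0803, adjusted p = 0.178). Nor did it pass without ARD1 replicate 2 or 3 (adjusted p = 0.0895 and 0.0551), and its adjusted p over all alternatives lay between 0.000996 and 0.460. With library totals 8 of the list were higher, and 3 with GC and length offsets.

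Genes of glucose transport and glucose 6-phosphate supply mostly fell, 17 of 22 tested, with 2 higher and a median of -0.77. SLC2A1, which encodes the GLUT1 that TXNIP internalises, fell from 145 ± 14.8 to 85.4 ± 2.63 CPM (-0.76, SE 0.0809). SLC2A6, a lysosomal hexose transporter, fell from 54.2 ± 2.45 to 6.12 ± 0.189 CPM (-3.14, SE 0.0953), and the sodium-glucose cotransporter SLC5A1 from 1.03 ± 0.0231 to 0.221 ± 0.107 CPM (-2.16, SE 0.411). In the ARD1 libraries SLC5A1 was near the level of 3 counts, so the size of its change is uncertain. The hexokinase HK2 was low and did not pass in edgeR (0.43, adjusted p = 0.338). HKDC1, a hexokinase of low activity, rose (1.15, SE 0.0709), as did GCKR. The glucose 6-phosphatase subunit G6PC3 fell by 0.32 on the log2 scale (SE 0.0933), and did not pass with library totals (-0.05, adjusted p = 0.604, range over its alternatives 0.000378 to 0.604).

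Of 21 genes reported to set TXNIP transcript, 10 were higher and 2, FOXO4 (-0.32) and the NF-Y subunit NFYC (-0.24), lower, with a median of 0.25. The 57.1% of this list past the threshold lay below the 64.6% of all genes. The largest rises were in EGR1, an immediate early transcription factor (18.4 ± 2.10 to 194 ± 9.32 CPM; 3.40, SE 0.0922), ERN1, the stress sensor IRE1 (26.5 ± 1.18 to 111 ± 3.63 CPM; 2.08, SE 0.0765), and the vitamin D receptor VDR (8.24 ± 0.351 to 22.7 ± 2.48 CPM; 1.46, SE 0.113). With library totals 16 of this list were higher and 0 lower in edgeR, with 0 lower at an unadjusted p under 0.05 as well. DESeq2, run only with its own scaling and not with library totals, called 2 lower, as edgeR did with TMM. The count of lower genes came to 1 without any single ARD1 library and to 4 without control replicate 1. Across the alternatives NFYC ranged over -0.30 to 0.0241.

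**Figure D5:**
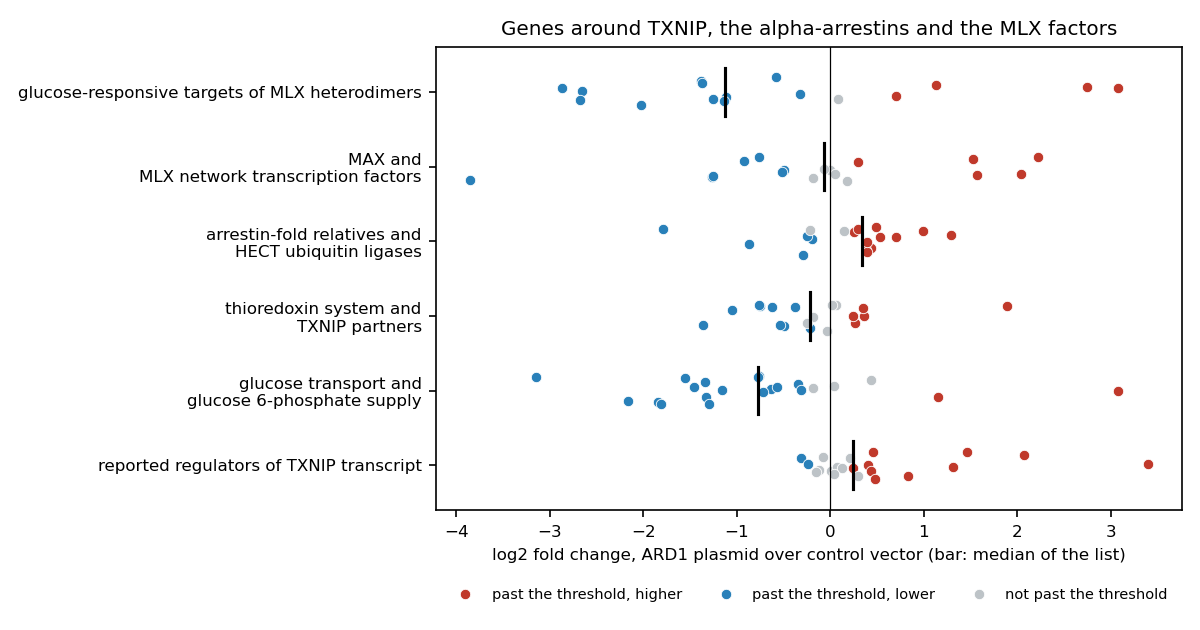
Log2 fold change of each tested gene in the 6 lists (red past the threshold and higher, blue past it and lower, grey not past), with black bars at the list medians. Targets of MLX dimers and glucose supply genes lie mostly to the left (medians -1.12 and -0.77), and arrestin-fold relatives, ligases and partners mostly to the right (0.34).

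The genes whose profile was nearest to that of TXNIP were sought among 13500 genes with a symbol and at least 1 CPM in a group, by Euclidean distance of centred log2 CPM over the 6 libraries. They were the cytokine IL18 (0.1599), ODC1 of polyamine synthesis (0.163), the phosphatase regulator PPP1R15A (0.183), the VEGF receptor KDR (0.189) and the protease ADAMTS16 (0.214). ARRDC4, at 0.666, came in place 200. Nearest to ARRDC4 were CSGALNACT2 (0.0801), ZMAT1 (0.278), the stress transcription factor DDIT3 (0.295), the growth factor EREG (0.302) and PABPC1L (0.304), and TXNIP came in place 76. With 2 groups, this distance mainly reflects the size of the difference between them.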

How the data were processed

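The authors deposited a table of raw read counts, whole numbers per Ensembl gene and library. Per the submitters' processing notes, cutadapt 4.6, STAR 2.7.11b and GRCh38 were used. Per the labels' protocols, ribosomal RNA was depleted and a directional kit was used. For the counting program, its strand setting and annotation: not given in the sources used here. All genes in the table have at least 2 counts in all.

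Groups and replicate numbers came from sample titles. Symbols matched 25052 of 25071 identifiers. Counts of all genes were fitted with edgeR 4.0.16 (R 4.3.3), using filterByExpr, TMM and the quasi-likelihood test, with Benjamini-Hochberg adjustment over the 15816 genes kept and a threshold of 0.05. SEs come from the F statistic. Fold changes are ARD1 over control. P-values reflect only how much these libraries spread, possibly for technical reasons, and without molecular identifiers floors cover counting error only. Lengths, GC content (23118 genes) and positions are from GENCODE 29, and promoter sequences from RefSeq, GRCh38.p14.

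The members, lists and alternatives were chosen with earlier results of these data known. Named were the 8 members, 15 preset genes (1 of them not reported here), the 3 largest changes of each list among genes past the threshold whose higher group averaged 1 CPM or more, and the 5 genes nearest to TXNIP and to ARRDC4. For those distances a pseudocount of 0.0854 CPM was added. Other genes, which complete counts of 5 or fewer, were named after their values were seen. Alternatives were RLE and upper-quartile scaling, library totals, DESeq2 1.42.0, limma-voom (limma 3.58.1), no filter, a minimum of 1 CPM in 3 libraries, a block for the replicate number, loess offsets (span 0.3) for GC content and length, both of these together, each library left out, and a log2 fold change of at least 1 in size. edgeR, with and without offsets, DESeq2 and limma-voom were also run on simulated counts with 200 genes changed. There 4.98% to 7.73% of calls were genes left unchanged. With 64.6% of genes called in the real libraries, so few changed genes could not check the scaling.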

Additional observations from a re-analysis of the deposited data

How the results depend on the processing

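The cause of the shifts below was not tested. Of 10223 genes past the threshold, 3406 also changed by an absolute log2 value of at least 1. With library totals, higher calls came to 9 in the MAX and MLX network, 8 in the thioredoxin list and 16 among reported regulators of TXNIP, and lower calls to 2 in the arrestin-fold list and 0 among the regulators. With upper-quartile scaling lower calls were 3 in the arrestin-fold list and 1 among regulators. With GC and length offsets, higher thioredoxin calls were 3 and lower regulator calls 4, and with the replicate block added to them also 3 and 4. Leaving out 1 library at a time gave 3 to 5 lower genes in the arrestin-fold list and 1 to 4 lower regulators.

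Among 36 named genes followed through the alternatives, reversed log2 fold changes were those of ARRDC2, DDIT4, ITCH and TXN. ARRDC2 had 0.14 with offsets, 0.14 with block and offsets, and 0.0907 with totals. DDIT4 had 0.0803, 0.0794 and 0.0518 in the same order. ITCH had -0.14 with offsets and -0.15 with block and offsets. TXN had -0.10 and -0.10 likewise, and -0.0669 without control replicate 1, with 0.116 the highest value when 1 library was left out. Genes named above but not among the 36 also changed sign under some alternatives. These included PRKAA1 (lowest -0.15), KHK (lowest -0.0758), VPS26B (highest 0.0710), NFYC (highest 0.0241) and WWP2 (highest 0.0186). Of 574 values for 36 named genes under alternatives, 551 kept direction and side of the threshold, 8 lost the call, 4 gained it and 11 reversed. Counts of members past the threshold stayed within 1.5 times of the main counts.

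Libraries with the same replicate number did not deviate together (correlations 0.02, -0.04 and 0.03), and not every library correlated best with its own number. The numbers thus gave no sign of pairing. With 3 libraries in a group, this cannot settle whether samples were prepared in pairs. The replicate block alone gave 10293 calls in place of 10223 and moved no count above by over 1.5 times. A count of 3 equals 0.1199 to 0.137 CPM, which limits ARRDC5 and PKLR.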

Other observations

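ARRDC1-AS1, which lies on the strand opposite ARRDC1 and overlaps 0.759% of its exon bases, was at 19.8 ± 0.853 CPM in control and 18.1 ± 0.880 CPM in ARD1 libraries (SD, n = 3) and did not pass in edgeR (log2 fold change -0.13, adjusted p = 0.231), where ARRDC1 had -0.75. ARRDC3-AS1 was at 0.750 ± 0.264 and 0.529 ± 0.0305 CPM and did not pass either (-0.50, adjusted p = 0.258).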
